A study of Arabidopsis thaliana with 6 samples.

Results

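The genes described are the translation initiation, elongation and release factors of Arabidopsis thaliana other than the eIF4F complex and its close partners. The rule uses words of the annotation and no measured value, but it was chosen with earlier results of these data known. Of 34001 entries in the deposited table, 137 carry the words initiation factor, elongation factor or release factor. Setting aside 31 entries whose annotation also speaks of transcription and 8 entries of eIF4E, eIF4G, eIF4A or eIF4B type loci left 98 entries of 97 loci. Some of these are no translation factors, such as the lipid droplet protein AT1G67360 and the transcript elongation factor TFIIS. They are counted among the factors below. The loci A1, A2 and A4 are eEF1A genes named as in the table.

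Protein synthesis starts when initiation factors bring the small ribosomal subunit and the initiator tRNA to the start codon of an mRNA. Elongation factors then deliver aminoacyl-tRNAs and move the ribosome along, and release factors free the finished chain at a stop codon. Plastids and mitochondria have factors of bacterial type of their own, which are made from nuclear genes. In developing seeds the embryo makes storage proteins and oil while these factors are in use.

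Total RNA was sequenced from whole seeds of the strain Columbia-0, pooled after dissection from siliques tagged on the day of flowering and collected at 13 days after flowering. The groups were the mutant line ar21 with 2 libraries, the mutant line i4g1 with 2 libraries and wild type (WT) with 2 libraries, all at the same stage and with no treatment. The labels do not name the mutated gene. From knowledge of the study, both lines are read as mutants of eIFiso4G1 (AT5G57870), a scaffold that joins the cap-binding protein to the rest of the initiation machinery. The question of the design is how seed transcripts of each mutant line differ from WT, and it is asked here of the other translation factors. The design text calls the 2 libraries of a line biological replicates. In whole seeds, fewer cells of a type and less RNA per cell cannot be told apart.

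Values are normalised counts, that is, reads divided by 1 size factor per library. The 5 libraries whose reads could be recovered held 3418773 to 8435759 reads. eIFiso4G1 itself stood at 116 and 123 normalised counts in ar21, 24.5 and 45.6 in i4g1, and 368 and 454 in WT. The nuclear 18S rRNA locus took 19.8% to 30.0% of the values in ar21, 3.90% to 11.5% in i4g1 and 40.8% to 60.7% in WT, and mitochondrial transcripts took 0.947% to 1.79% of the rest in ar21, 0.178% to 0.609% in i4g1 and 4.64% to 5.73% in WT. Plastid transcripts were also highest in WT. The part of this composition in the results below was not tested, but all values were also rescaled to the nuclear total without that locus. The seed markers CRB, PAP85, OLEO1 and OLEO2 were abundant in every library and none was called in either mutant line, while the entries of CRC and SESA1 were at or near 0. The highest of the CRA1 entries had a mean of 27.1 and was not called. Of 4 seed coat markers 1, MUM2, was called higher in both lines, and the endosperm marker EPR1 was not called.

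The 98 entries took 1.26% to 1.29% of the nuclear values in ar21, 1.24% to 1.30% in i4g1 and 0.941% to 0.996% in WT, so that the mutant libraries did not overlap with WT. Their sum was 44888 and 44171 in ar21, 47321.5 and 45619 in i4g1, and 32751.5 and 34199 in WT. A large part was 1 gene: AT5G60390 gave 13415 and 13076 in ar21, 14728 and 13923 in i4g1, and 7386 and 7809.9 in WT. A mean of at least 10 over the 6 libraries was needed for a test, and 79 entries met it. The other 19 entries did not, of which 7 were at 0 in every library and the highest of the other 12 had a mean of 8.31. Tested means ran from 15.5 for AT3G12915, an eEF2-like locus, to 11723 for the eEF1A locus AT5G60390. Per kilobase of transcript, where genes can be compared, AT5G60390 was at 5853 in ar21, 6330.3 in i4g1 and 3357 in WT. Next in WT came FBR12, an eIF5A gene, at 1727 in ar21, 1565 in i4g1 and 1250.2 in WT, and the eEF2 gene LOS1 at 1538 in ar21, 1466 in i4g1 and 1085 in WT.

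In ar21 seeds, 16 of the 79 tested factors were higher than in WT (20.3%) and 3 were lower (3.80%) at a limma adjusted p under 0.05. The lower ones were ERF1-1, ATELF5A-3 and AT1G67360, and AT1G67360 is no translation factor. Of all 15591 loci tested, 8.76% were called higher in ar21 and 6.03% were called lower. The median log2 fold change was 0.13 over the 79 factors and 0.01 over all loci. Both ar21 libraries stood above both WT libraries for 37 factors, against 30.4% of all loci, and below both for 13, against 28.5% of all loci. All 6 eEF1A and eEF1B genes among the tested factors were called higher. Of eEF1B, only genes of the gamma subunit are among the factors read here. The other higher calls were 4 eIF3 subunits, 1 gene each of eIF1, eIF2, eIF5A and eEF2 type and 2 bacterial-type factors. These calls rested on both ar21 libraries. Without ar21 replicate 1 only A1, A4 and EIF3K stayed higher and ERF1-1 lower, and without ar21 replicate 2 there were 5 higher and 2 lower. EdgeR on the 5 libraries with recovered reads, which leaves out ar21 replicate 1, called 4 higher and 1 lower. Calls over all loci also fell in these fits, to 337 higher and 185 lower without ar21 replicate 1, 567 and 260 without ar21 replicate 2 and 415 and 267 with edgeR, against 1365 and 940 with all libraries in limma.

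In i4g1 seeds, 21 of the 79 factors were higher than in WT (26.6%) and 2 were lower (2.53%). The lower ones were ERF1-1 and AT1G67360, which is no translation factor. Over all loci 12.5% were called higher and 9.86% lower in i4g1. The median log2 fold change was 0.23 over the factors and 0.01 over all loci. Both i4g1 libraries stood above both WT libraries for 45 factors, against 31.0% of all loci, and below both for 10, against 29.2% of all loci. With values scaled to the nuclear total, the calls over all loci were 1440 higher and 1824 lower, against 1952 and 1537 as deposited, and the factors' median was 0.15 where that of all loci was -0.06. On that scale 17 factors were higher and 5 lower in i4g1, and the 19 calls of ar21 were unchanged. The i4g1 calls of A2, LOS1, EIF2 GAMMA and ATSCO1 were lost on that scale, and those of A2, LOS1 and EIF2 GAMMA also with edgeR on the recovered reads.

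No factor was called between ar21 and i4g1, where limma called 0.115% of all loci higher and 0.167% lower in ar21. At an unadjusted p under 0.05 there were 5 of the 79 factors, all lower in ar21, against 1374 of all 15591 loci in either direction. The 5 were EIF3G1, AT5G13650, ATSCO1, emb2726 and AT1G11480. EdgeR and DESeq2 on the recovered reads called 0 as well. Log2 differences between the mutant lines ran from -0.76 to 0.28, with a median of -0.09. Both ar21 libraries stood above both i4g1 libraries for 6 factors, against 21.5% of all loci, and below both for 28, against 20.8% of all loci. Without i4g1 replicate 1, AT5G13650, ATSCO1 and emb2726 were called lower in ar21, at log2 differences of -0.76, -1.24 and -0.96. Over all loci that fit called 89 higher and 69 lower in ar21, against 18 and 26 with all libraries. Leaving out i4g1 replicate 1 makes i4g1 replicate 2 the only i4g1 library. Replicate 2 stood above replicate 1 at 541 against 369.7 in AT5G13650, 371 against 191 in ATSCO1 and 361 against 203 in emb2726. Because ar21 and i4g1 were set against the same WT libraries, the values of both lines are given side by side below and their likeness is not counted as a result.

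**Figure D1:**
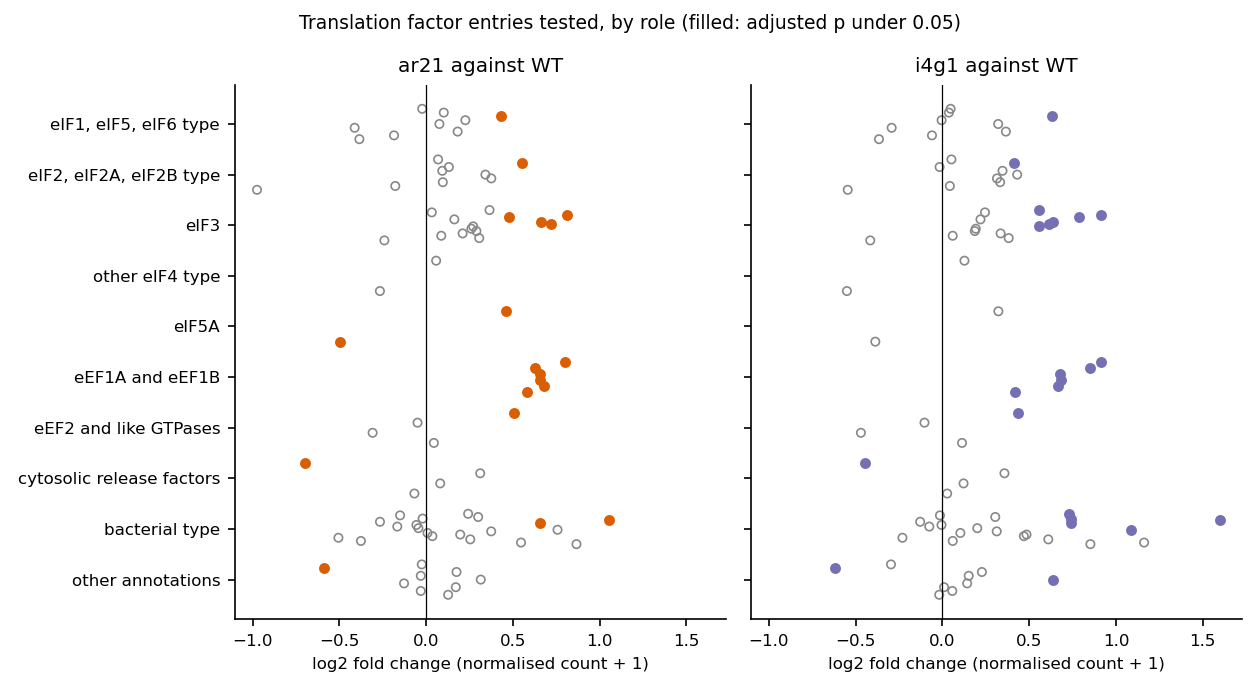
Log2 fold change of each of the 79 tested translation factor entries (x axis, on the log2 scale of normalised count + 1) by role (y axis), for ar21 against WT on the left and i4g1 against WT on the right. Filled points passed an adjusted p under 0.05; all 6 eEF1A and eEF1B points are filled and right of 0 in both panels, while points of the other roles lie on both sides.

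The upstream windows of 4 of these genes are shown because AT5G60390, A4, LOS1 and FBR12 are abundant factors that were called higher in ar21, and because no annotated exon lies in their windows. Each window is the 300 bases before the annotated start in TAIR10.1, read 5′ to 3′ on the gene's strand. The windows are chr5:24288296-24288595 (+ strand) for AT5G60390, chr1:2457884-2458183 (+ strand) for A4, chr1:20971743-20972042 (- strand) for LOS1 and chr1:9205500-9205799 (+ strand) for FBR12. Capitals mark matches on either strand to the telo box AAACCCTAA and to the site II element TGGGCC or TGGGCT, both known from plant ribosomal protein and translation factor promoters.
AT5G60390: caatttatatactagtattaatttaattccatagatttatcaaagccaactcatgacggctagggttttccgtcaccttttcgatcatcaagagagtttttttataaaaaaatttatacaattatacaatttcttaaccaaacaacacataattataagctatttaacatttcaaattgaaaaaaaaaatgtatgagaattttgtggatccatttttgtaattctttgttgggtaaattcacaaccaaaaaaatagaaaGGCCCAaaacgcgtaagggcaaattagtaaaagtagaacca
A4: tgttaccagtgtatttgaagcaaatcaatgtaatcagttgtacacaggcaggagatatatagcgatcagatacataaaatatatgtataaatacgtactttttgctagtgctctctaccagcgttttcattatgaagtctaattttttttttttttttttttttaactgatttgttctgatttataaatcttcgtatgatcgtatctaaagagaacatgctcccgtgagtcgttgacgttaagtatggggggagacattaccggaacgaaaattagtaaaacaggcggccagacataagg
LOS1: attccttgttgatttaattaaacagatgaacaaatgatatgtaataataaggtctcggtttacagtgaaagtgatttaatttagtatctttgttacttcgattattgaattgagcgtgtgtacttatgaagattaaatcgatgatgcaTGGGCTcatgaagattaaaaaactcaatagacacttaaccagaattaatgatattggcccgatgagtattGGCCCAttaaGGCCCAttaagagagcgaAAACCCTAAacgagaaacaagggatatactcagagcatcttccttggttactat
FBR12: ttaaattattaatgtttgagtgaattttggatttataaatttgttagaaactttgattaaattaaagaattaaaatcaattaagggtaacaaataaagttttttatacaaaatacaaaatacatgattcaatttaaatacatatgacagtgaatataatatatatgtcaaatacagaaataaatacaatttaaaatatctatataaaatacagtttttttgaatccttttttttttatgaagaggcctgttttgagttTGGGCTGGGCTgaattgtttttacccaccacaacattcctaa
LOS1 has the telo box 54 bases before its start and 3 site II matches farther up. AT5G60390 has 1 site II match, 41 bases before its start. FBR12 has 2 site II matches that share a base, at 42 and 37 bases, and A4 has no match. Site II letters were present in 44 of the 97 factor windows (45.4%) and in 20.8% of all 27443 windows of nuclear protein-coding genes. The telo box was present in 7 factor windows (7.22%) and in 3.04% of all windows. A site II match was present in 8 of 16 factors called higher in ar21 and in 29 of 60 tested and not called. In i4g1 the counts were 10 of 21 called higher and 27 of 56 not called. A match is a match of letters and not a measured binding site.

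The elongation factors that bring tRNAs to the ribosome were higher in both mutant lines. eEF1A is the GTPase that carries aminoacyl-tRNA, and AT5G60390 (TAIR10.1 chromosome 5, 24288596 to 24291020, + strand) gave most of its transcripts. AT5G60390 had normalised counts of 13415 and 13076 in ar21, 14728 and 13923 in i4g1, and 7386 and 7809.9 in WT. All 4 mutant libraries lay above both WT libraries. The log2 fold change was 0.80 ± 0.17 (adjusted p = 0.0083) in ar21 and 0.91 ± 0.17 (adjusted p = 0.00272) in i4g1, where ± is the standard error with n = 2 libraries per line. The ar21 call was lost when either ar21 or either WT library was left out (adjusted p up to 0.122), at log2 fold changes of 0.76 to 0.84. The i4g1 call was kept in all 6 such fits.

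The other eEF1A genes lie in 1 cluster on chromosome 1. A1 (AT1G07920) had normalised counts of 1279 and 1348 in ar21, 1369 and 1294 in i4g1, and 801 and 865 in WT, with log2 fold changes of 0.66 ± 0.11 (adjusted p = 0.00298) in ar21 and 0.68 ± 0.11 (adjusted p = 0.00156) in i4g1. A4 (AT1G07930) had normalised counts of 1091 and 1206 in ar21, 1162 and 1114 in i4g1, and 638 and 804 in WT, with log2 fold changes of 0.68 ± 0.13 (adjusted p = 0.00552) in ar21 and 0.67 ± 0.13 (adjusted p = 0.00404) in i4g1. A2 (AT1G07940) had normalised counts of 1001 and 952 in ar21, 875 and 872 in i4g1, and 618 and 689 in WT, with log2 fold changes of 0.58 ± 0.11 (adjusted p = 0.00591) in ar21 and 0.42 ± 0.11 (adjusted p = 0.0209) in i4g1. In each of the 3 genes the mutant libraries lay above both WT libraries. These genes are near copies: of the 50-base stretches of their transcripts, 63.6% in A1, 42.4% in A4 and 48.7% in A2 occur elsewhere in the genome, against 6.01% in AT5G60390. How reads were split among them is uncertain, and their sum is the firmer quantity. Per kilobase, the 4 eEF1A genes made up 33.5% and 34.1% of all factor transcripts in ar21, 34.4% and 34.5% in i4g1, and 25.1% and 26.4% in WT. Within eEF1A the share of AT5G60390 was 77.8% and 76.6% in ar21, 79.1% and 78.8% in i4g1, and 76.0% and 74.5% in WT. The ar21 calls were lost without ar21 replicate 2 in A1 and A4 (adjusted p up to 0.0778) and without either ar21 library in A2 (up to 0.0959), and the i4g1 call of A2 without WT replicate 1 or either i4g1 library (up to 0.101).

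The gamma subunits of eEF1B, the complex that reloads eEF1A with GTP, were higher as well. AT1G09640 (TAIR10.1 chromosome 1, 3119739 to 3122542, + strand) had normalised counts of 1338 and 1279.5 in ar21, 1632 and 1426 in i4g1, and 786 and 913 in WT. Its log2 fold change was 0.63 ± 0.13 (adjusted p = 0.00624) in ar21 and 0.85 ± 0.13 (adjusted p = 0.000702) in i4g1. AT1G57720 (TAIR10.1 chromosome 1, 21377320 to 21380382, + strand) had normalised counts of 1292 and 1218 in ar21, 1319 and 1239 in i4g1, and 805 and 789.7 in WT, with log2 fold changes of 0.65 ± 0.11 (adjusted p = 0.00276) in ar21 and 0.68 ± 0.11 (adjusted p = 0.00135) in i4g1. For both genes the mutant and WT libraries did not overlap. Without ar21 replicate 1 both ar21 calls were lost, and without ar21 replicate 2 that of AT1G09640 (adjusted p up to 0.0938).

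LOS1 (TAIR10.1 chromosome 1, 20967652 to 20971742, - strand) encodes eEF2, the GTPase that moves the ribosome along the mRNA, and is known from a cold-response mutant. It had normalised counts of 5619 and 5583 in ar21, 5471 and 5205 in i4g1, and 3713 and 4189 in WT. The mutant libraries were all above WT, by 0.51 ± 0.14 (adjusted p = 0.0297) on the log2 scale in ar21 and 0.44 ± 0.14 (adjusted p = 0.0407) in i4g1. Both calls lay near the threshold. Leaving out either WT or either ar21 library ended the call in both lines, as did leaving out i4g1 replicate 1 in i4g1 (adjusted p up to 0.22 in ar21 and 0.219 in i4g1). Of the like GTPases, MEE5, which is similar to a splicing factor GTPase, had normalised counts of 241 and 271 in ar21, 226 and 268 in i4g1, and 247 and 283 in WT and was not called. AT3G22980 was not called either, but was called lower in i4g1 with nuclear total scaling and without WT replicate 2. AT3G12915 shares 87.1% of its exonic bases with another gene, so its low values are uncertain without strand information.

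**Figure D2:**
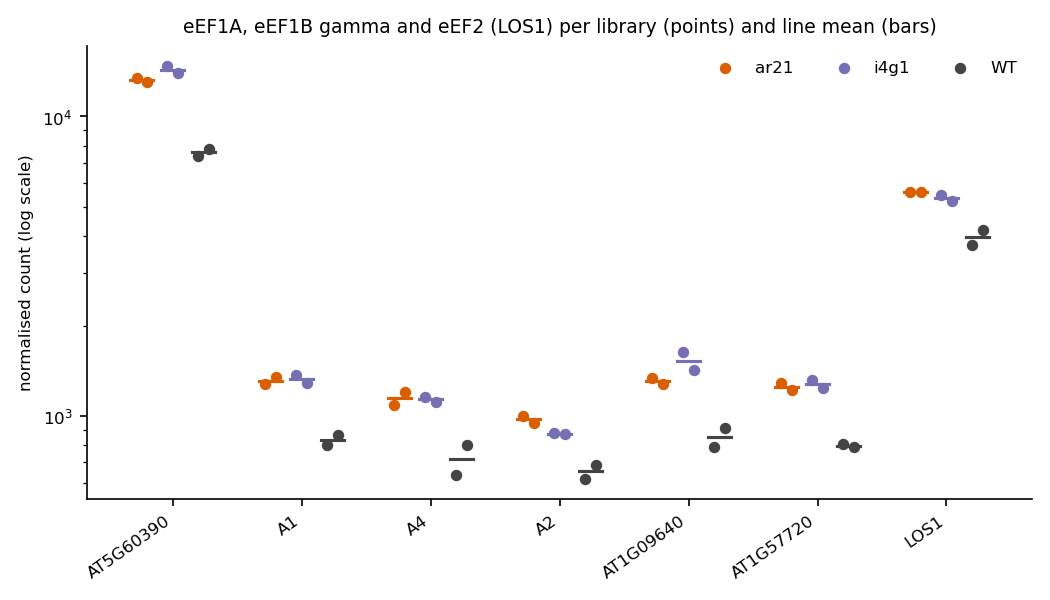
Normalised counts (y axis, log scale) of the 4 eEF1A genes AT5G60390, A1, A4 and A2, the eEF1B gamma genes AT1G09640 and AT1G57720 and the eEF2 gene LOS1, with 1 point per library and a bar at the mean of each line. For each gene the ar21 and i4g1 points lie above both WT points, for example 13076 to 14728 against 7386 to 7809.9 in AT5G60390.

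Transcripts of eIF5A genes moved in opposite directions in ar21. eIF5A carries the modified residue hypusine and helps ribosomes through stretches where they stall. FBR12 (TAIR10.1 chromosome 1, 9205800 to 9207417, + strand), the most abundant of the 3 eIF5A genes per kilobase, had normalised counts of 1782 and 1558 in ar21, 1582 and 1445 in i4g1, and 1217 and 1201 in WT. ATELF5A-3 (TAIR10.1 chromosome 1, 26089030 to 26090734, + strand) had normalised counts of 978 and 873 in ar21, 1087 and 916 in i4g1, and 1410.4 and 1207 in WT. Both mutant lines lay above WT for FBR12 and below WT for ATELF5A-3, with no overlap. In ar21 the log2 fold changes were 0.46 ± 0.12 (adjusted p = 0.024) for FBR12 and -0.50 ± 0.13 (adjusted p = 0.0264) for ATELF5A-3, and in i4g1 neither was called, at 0.32 ± 0.12 (adjusted p = 0.0754) and -0.39 ± 0.13 (adjusted p = 0.0552). The third gene, EIF-5A, had a mean under 10. FBR12 made up 70.7% and 70.3% of eIF5A transcripts per kilobase in ar21, 65.8% and 67.7% in i4g1, and 53.4% and 57.0% in WT. With 2 libraries against 2, the smallest p an exact permutation test can give is 0.333, so these shares are given without a test. The ar21 calls were lost without WT replicate 1 or either ar21 library in both genes, and without WT replicate 2 in FBR12 (adjusted p up to 0.268 for FBR12 and 0.216 for ATELF5A-3). In i4g1, ATELF5A-3 was called lower with TMM scaling, with nuclear total scaling, with a replicate block and without i4g1 replicate 1. FBR12 was not called in i4g1 under any alternative.

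Of the eRF1 genes, whose product reads the stop codon and frees the protein, 1 was lower in both mutant lines. ERF1-1 (TAIR10.1 chromosome 5, 19386045 to 19388587, - strand) had normalised counts of 271 and 269 in ar21, 327 and 318 in i4g1, and 449.8 and 428 in WT. Its log2 fold change was -0.70 ± 0.12 (adjusted p = 0.00249) in ar21 and -0.44 ± 0.12 (adjusted p = 0.0187) in i4g1. The 4 mutant libraries were all below WT, and the ar21 call held in each of the 6 fits with 1 library left out (adjusted p up to 0.0427). The i4g1 call was lost without WT replicate 1 or either i4g1 library (up to 0.0722). ERF1-1 was called in both lines with edgeR on the recovered reads. With DESeq2 on those reads and in limma without the intensity trend, ERF1-1 was called in neither line. ERF1-2 (TAIR10.1 chromosome 1, 4396348 to 4398193, - strand) had normalised counts of 326 and 325 in ar21, 353 and 319 in i4g1, and 240.1 and 286 in WT. Its mutant libraries lay above WT, but it was not called, at a log2 fold change of 0.31 ± 0.13 (adjusted p = 0.136) in ar21 and 0.36 ± 0.13 (adjusted p = 0.0719) in i4g1, and in i4g1 it passed only without WT replicate 2. ERF1-3 and PEL1, a pelota gene of ribosome rescue, were not called. ERF1-1 was 36.2% and 38.0% of eRF1 transcripts per kilobase in ar21, 40.2% and 41.1% in i4g1, and 56.0% and 51.1% in WT. On the mean per kilobase ERF1-2 stood at 196 in ar21, 203 in i4g1 and 159 in WT, and ERF1-1 at 146 in ar21, 175 in i4g1 and 238 in WT.

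**Figure D3:**
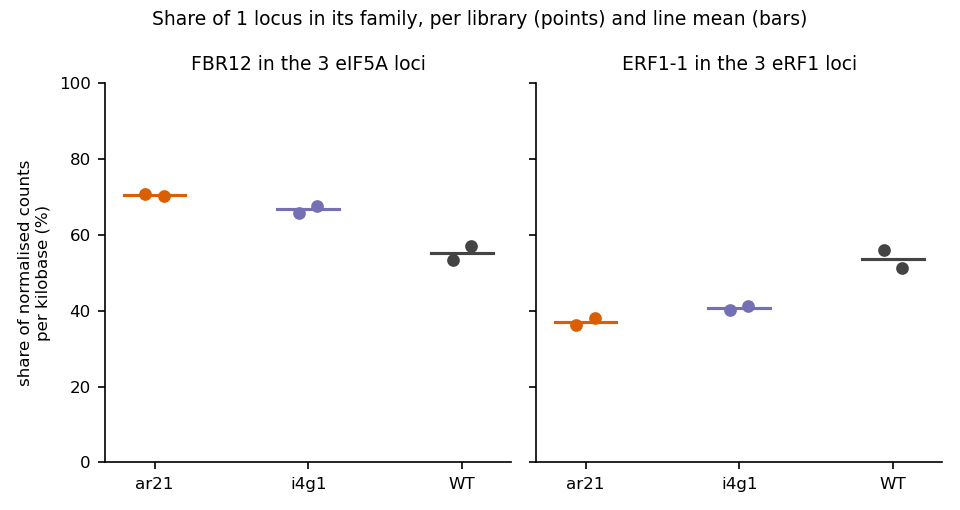
Share (y axis, % of normalised counts per kilobase) of FBR12 in the 3 eIF5A genes on the left and of ERF1-1 in the 3 eRF1 genes on the right, with 1 point per library and a bar at the mean of ar21, i4g1 and WT. FBR12 lies at 65.8% to 70.7% in the mutant libraries and at 53.4% and 57.0% in WT; ERF1-1 lies at 36.2% to 41.1% in the mutant libraries and at 51.1% and 56.0% in WT.

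eIF3 is the large complex that sits on the small ribosomal subunit and holds the other initiation factors. Of its 16 entries 14 were tested. In ar21 4 were called higher and none lower, with a median log2 fold change of 0.28, and in i4g1 6 were higher and none lower, with a median of 0.36. These calls were 28.6% of those tested in ar21 and 42.9% in i4g1, against 8.76% and 12.5% of all loci called higher. EIF3K (TAIR10.1 chromosome 4, 16038651 to 16040808, - strand), a small subunit, had normalised counts of 637 and 574 in ar21, 700.0 and 604 in i4g1, and 371 and 319 in WT. That was 0.81 ± 0.13 (adjusted p = 0.00198) in ar21 and 0.92 ± 0.13 (adjusted p = 0.000566) in i4g1 on the log2 scale. Both calls held whichever library was left out. The ar21 call of EIF3K was lost with DESeq2 on the recovered reads and in limma without the intensity trend. Its i4g1 call was kept in both. EIF3E (TAIR10.1 chromosome 3, 21196517 to 21199319, - strand) had normalised counts of 484 and 447 in ar21, 478 and 437 in i4g1, and 293 and 294 in WT, with log2 fold changes of 0.66 ± 0.12 (adjusted p = 0.00349) in ar21 and 0.64 ± 0.12 (adjusted p = 0.00289) in i4g1. AT2G39990, which the table calls EIF2 and which encodes eIF3f, had normalised counts of 412 and 397 in ar21, 408 and 348 in i4g1, and 241 and 249 in WT, with log2 fold changes of 0.72 ± 0.13 (adjusted p = 0.0032) in ar21 and 0.62 ± 0.13 (adjusted p = 0.00495) in i4g1. For each of these 3 subunits no mutant library overlapped with WT. The ar21 calls of EIF3E and AT2G39990 were lost without ar21 replicate 1 (adjusted p up to 0.0741).

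A further 3 eIF3 subunits were called higher in i4g1, and 1 of them in ar21 too. EIF3G1, an RNA-binding subunit, had normalised counts of 465 and 428 in ar21, 599.5 and 512 in i4g1, and 301 and 342 in WT, with log2 fold changes of 0.48 ± 0.13 (adjusted p = 0.0292) in ar21 and 0.79 ± 0.13 (adjusted p = 0.00137) in i4g1. EIF3A, the largest scaffold subunit, had normalised counts of 873 and 909 in ar21, 983 and 1055 in i4g1, and 628 and 762 in WT. It was not called in ar21, at a log2 fold change of 0.37 ± 0.12 (adjusted p = 0.0707), and was called in i4g1, at 0.56 ± 0.12 (adjusted p = 0.00795). TIF3H1, a subunit known for its part in reinitiation after upstream reading frames, had normalised counts of 278 and 272 in ar21, 351 and 321 in i4g1, and 247 and 210.0 in WT and was called in i4g1, at a log2 fold change of 0.56 ± 0.13 (adjusted p = 0.0108), and not in ar21, at 0.27 ± 0.13 (adjusted p = 0.195); it is named because of its value and not by the general rule. None of the 3 was called between ar21 and i4g1, where the adjusted p was 0.505 for EIF3G1, 0.706 for EIF3A and 0.571 for TIF3H1. EIF3C, the other core scaffold, had normalised counts of 757 and 829 in ar21, 945 and 892 in i4g1, and 759 and 789.7 in WT and was not called in ar21 (0.03) or i4g1 (0.25). The EIF3G1 call in ar21 was lost without WT replicate 1 or either ar21 library (adjusted p up to 0.247), the EIF3A call in i4g1 without WT replicate 1 (0.0571) and the TIF3H1 call without WT replicate 2 or i4g1 replicate 1 (up to 0.073). Without WT replicate 2, EIF3A was called in ar21 as well.

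**Figure D4:**
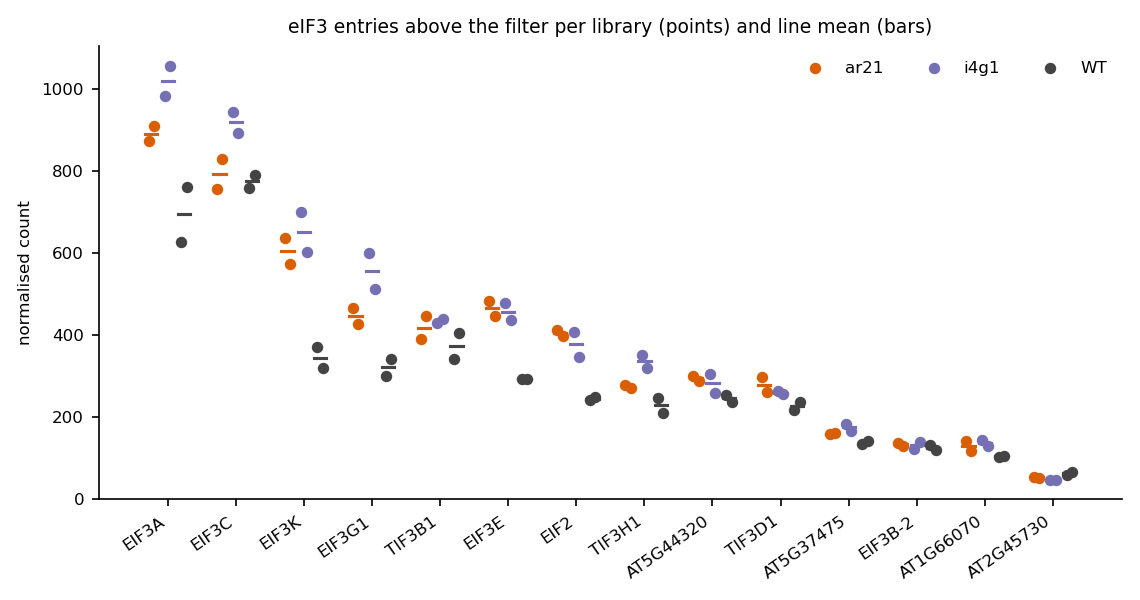
Normalised counts (y axis) of the 14 tested eIF3 entries in order of their mean, with 1 point per library and a bar at the mean of ar21, i4g1 and WT. EIF3K, EIF3E, AT2G39990 (drawn as EIF2) and EIF3G1, called in both lines, show both mutant lines above WT. Both libraries lie above both WT libraries for 10 of 14 entries in ar21 and 12 in i4g1, against 30.4% and 31.0% of all loci. TIF3B1 and AT5G25780 (drawn as EIF3B-2) show points that overlap or lie close together, and AT2G45730 lies below WT in both lines.

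Most factors that choose the start codon and bring the initiator tRNA were not called. eIF2 is the GTPase complex that carries the initiator tRNA, and its gamma subunit EIF2 GAMMA (TAIR10.1 chromosome 1, 1096882 to 1099901, + strand) had normalised counts of 416 and 409.9 in ar21, 378 and 369.7 in i4g1, and 263 and 299.6 in WT. It was higher by a log2 fold change of 0.55 ± 0.12 (adjusted p = 0.0105) in ar21 and 0.41 ± 0.12 (adjusted p = 0.0305) in i4g1. Neither EIF2 BETA, at normalised counts of 372 and 319.9 in ar21, 331 and 292 in i4g1, and 290.1 and 342 in WT, nor EIF2 ALPHA was called; both are named to show the complex and not by the general rule. Of the 9 tested entries annotated as of eIF2, eIF2A or eIF2B type, not all of them subunits of this complex, EIF2 GAMMA was the only one called. That is 11.1%, against 8.76% of all loci called higher in ar21 and 12.5% in i4g1. The ar21 call was lost without WT replicate 1 or either ar21 library (adjusted p up to 0.118), and the i4g1 call without any 1 library other than WT replicate 2 (up to 0.124). AT2G40290, another of the 9, had normalised counts of 181 and 149 in ar21, 183 and 167 in i4g1, and 127 and 132 in WT. Its mutant libraries lay above WT, but it was not called. The log2 fold changes were 0.34 ± 0.15 (adjusted p = 0.155) in ar21 and 0.43 ± 0.15 (adjusted p = 0.0611) in i4g1. In i4g1 it passed only with a filter at a mean of at least 50. AT2G40290 is named because of its value. AT1G76810, annotated as of eIF2 type, had normalised counts of 789.7 and 905 in ar21, 768 and 909 in i4g1, and 781 and 832 in WT, with the lines overlapping. Its relatives AT1G76820 and AT1G76720 share 31.1% and 22.9% of their 50-base stretches with other places in the genome. AT1G53880 and AT1G53900, near copies at 86.3% and 85.9%, were listed at 0 in every library, so that a value of 0 is uncertain there.

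Of the 9 tested factors of eIF1, eIF5 and eIF6 type, 1 was called, in both lines. That is 11.1% of those tested, against 8.76% of all loci called higher in ar21 and 12.5% in i4g1. AT4G27130, an SUI1 (eIF1) gene of start codon choice, had normalised counts of 476 and 466 in ar21, 587 and 498 in i4g1, and 366 and 333 in WT, with log2 fold changes of 0.43 ± 0.13 (adjusted p = 0.0379) in ar21 and 0.63 ± 0.13 (adjusted p = 0.00427) in i4g1; it too is named because of its value. AT5G54760, the most abundant SUI1 gene per kilobase, had normalised counts of 633 and 676 in ar21, 657 and 596 in i4g1, and 612 and 608 in WT and was not called. AT1G36730, annotated as IF2/IF5, had normalised counts of 752 and 695 in ar21, 759 and 758 in i4g1, and 697 and 773 in WT, and was not called. Of eIF4 type, EIF4A-III, the helicase of the exon junction complex, had normalised counts of 377 and 408 in ar21, 409 and 414 in i4g1, and 378 and 375 in WT and log2 fold changes of 0.06 in ar21 and 0.13 in i4g1, neither called. The low-abundance AT4G30680 was not called. The AT4G27130 call in ar21 was lost without any 1 of the ar21 and WT libraries (adjusted p up to 0.238), and the i4g1 call was kept in all 6 such fits.

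Bacterial-type factors of plastids and mitochondria had 20 tested entries of 23. In ar21 2 were higher and none lower, with a median log2 fold change of 0.12, and in i4g1 5 were higher and none lower, with a median of 0.39. The higher calls were 10% of those tested in ar21 and 25% in i4g1, against 8.76% and 12.5% of all loci. The elongation factor EF-Ts gene emb2726 (TAIR10.1 chromosome 4, 14317226 to 14321575, + strand), needed for embryo development, had normalised counts of 199 and 173 in ar21, 203 and 361 in i4g1, and 87.8 and 89.6 in WT. All mutant libraries lay above WT, and i4g1 replicate 2 stood apart from the rest. The log2 fold change was 1.06 ± 0.22 (adjusted p = 0.00792) in ar21 and 1.60 ± 0.22 (adjusted p = 0.000463) in i4g1, the largest among the 79 factors in each line. The EF-Tu gene AT4G02930 (TAIR10.1 chromosome 4, 1295375 to 1298500, - strand), whose product carries aminoacyl-tRNA in organelles, had normalised counts of 128 and 139 in ar21, 134 and 149 in i4g1, and 84.1 and 84.0 in WT. It was higher by a log2 fold change of 0.66 ± 0.16 (adjusted p = 0.0153) in ar21 and 0.74 ± 0.16 (adjusted p = 0.00573) in i4g1, with no overlap. In ar21 the call of emb2726 was lost without ar21 replicate 1 (adjusted p = 0.102) and that of AT4G02930 without either ar21 library (up to 0.141).

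Another 3 bacterial-type factors were called higher in i4g1 and not in ar21. AT5G13650, which the table also calls SVR3, a GTPase needed for chloroplast development, had normalised counts of 309 and 327 in ar21, 369.7 and 541 in i4g1, and 272 and 266 in WT, with log2 fold changes of 0.24 ± 0.16 (adjusted p = 0.351) in ar21 and 0.73 ± 0.16 (adjusted p = 0.00755) in i4g1. ATSCO1, the plastid EF-G that moves the ribosome along, had normalised counts of 167 and 148 in ar21, 191 and 371 in i4g1, and 144 and 176 in WT, with log2 fold changes of -0.02 ± 0.24 (adjusted p = 0.967) in ar21 and 0.74 ± 0.24 (adjusted p = 0.0472) in i4g1. The IF3 gene AT2G24060 had normalised counts of 58.3 and 60.0 in ar21, 62.9 and 88.1 in i4g1, and 42.7 and 28.0 in WT, with log2 fold changes of 0.76 ± 0.26 (adjusted p = 0.0681) in ar21 and 1.08 ± 0.26 (adjusted p = 0.0105) in i4g1, but 36.9% of its exonic bases overlap another gene. In AT5G13650 and ATSCO1, i4g1 replicate 2 was far above i4g1 replicate 1. Without i4g1 replicate 2 all 3 calls were lost, and log2 fold changes over the fits with 1 library left out ran 0.46 to 1.01 for AT5G13650 (adjusted p up to 0.0616) and 0.26 to 1.21 for ATSCO1 (up to 0.4). ATSCO1 was also lost without either WT or either ar21 library, and AT2G24060 without WT replicate 2 (up to 0.0972). Without WT replicate 1, AT2G24060 was called in ar21 as well.

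The same i4g1 library was high in a leaf gene. The 3 markers of shoot tissue outside the seed summed to 19.8 to 30.1 normalised counts in ar21, 128 to 424 in i4g1 and 30.8 to 40.2 in WT. CA1, a plastid carbonic anhydrase, had normalised counts of 24.1 and 16.8 in ar21, 115 and 415 in i4g1, and 32.9 and 22.4 in WT, and VSP1 and VSP2 were below the filter. The part of shoot tissue in the values of the plastid factors was not tested. FUG1, the plastid initiation factor IF2, had normalised counts of 265 and 264 in ar21, 232 and 363 in i4g1, and 299 and 288 in WT, again highest in i4g1 replicate 2, and was not called in either line. AT3G08740, an EF-P gene, had normalised counts of 310.5 and 264 in ar21, 285 and 289 in i4g1, and 229 and 235 in WT and was not called. The EF-Ts gene EFTS had normalised counts of 106 and 83.4 in ar21, 93.5 and 101 in i4g1, and 113 and 84.0 in WT, with overlapping lines. AT3G08740 and EFTS were named after their values were seen, to show genes of this type that were not called.

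**Figure D5:**
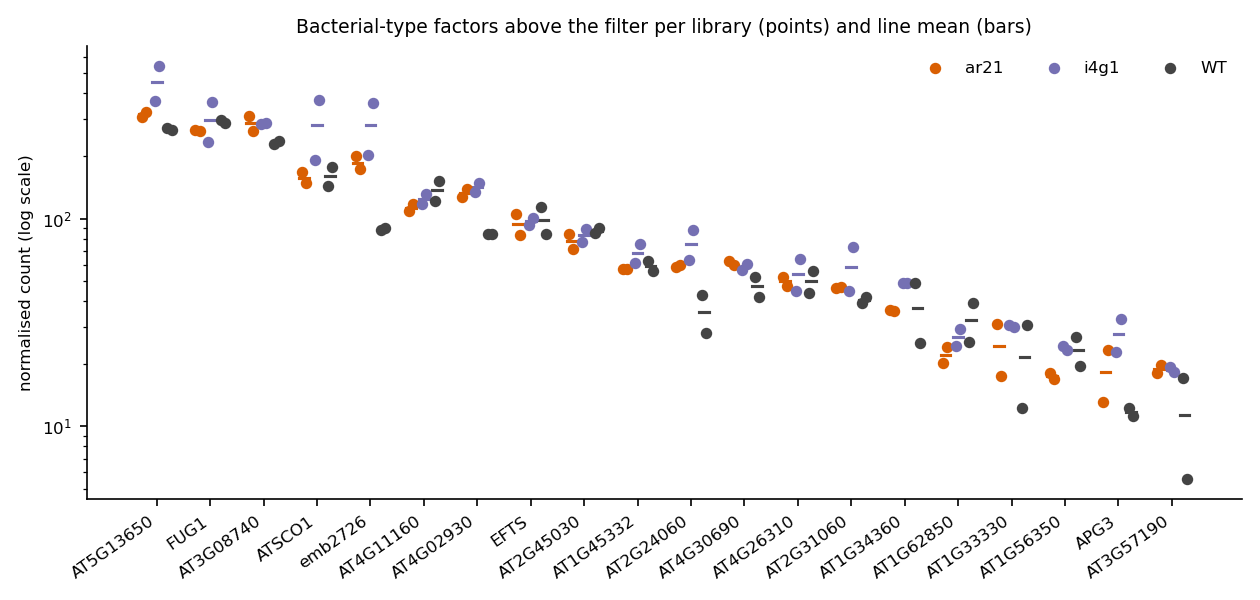
Normalised counts (y axis, log scale) of the 20 tested bacterial-type entries in order of their mean, with 1 point per library and a bar at the mean of ar21, i4g1 and WT. emb2726 and AT4G02930, called in both lines, have all mutant points above WT. Both libraries lie above both WT libraries for 9 of 20 entries in ar21 and 11 in i4g1, against 30.4% and 31.0% of all loci. They lie below both for 5 in ar21 and 0 in i4g1, against 28.5% and 29.2% of all loci. The upper i4g1 point of AT5G13650, ATSCO1, emb2726 and FUG1 (541, 371, 361 and 363) is i4g1 replicate 2.

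The last group holds 13 entries whose annotation names another kind of factor, or one not placed above. Of 9 tested, 1 was lower in ar21, and in i4g1 1 was higher and 1 lower. Each is 11.1% of those tested, against 6.03% of all loci lower in ar21 and 12.5% higher and 9.86% lower in i4g1. AT1G67360 (TAIR10.1 chromosome 1, 25236781 to 25238216, - strand), of the rubber elongation factor family of lipid droplet proteins and so no translation factor, had normalised counts of 436 and 482 in ar21, 464 and 433 in i4g1, and 696 and 683 in WT. Its log2 fold change was -0.59 ± 0.12 (adjusted p = 0.0061) in ar21 and -0.62 ± 0.12 (adjusted p = 0.00299) in i4g1, with all mutant libraries below WT; the ar21 call was lost without ar21 replicate 1 (adjusted p = 0.112). Its relative AT3G05500 had normalised counts of 1050.0 and 1103 in ar21, 989 and 804 in i4g1, and 1076 and 1114 in WT, and was not called; it was called lower in i4g1 without i4g1 replicate 1 and with values scaled to the nuclear total. AT1G11480, annotated as related to initiation factors and named because of its value, had normalised counts of 276 and 332 in ar21, 369.7 and 388 in i4g1, and 265 and 224 in WT and was higher in i4g1 at a log2 fold change of 0.64 ± 0.14 (adjusted p = 0.00722), and not called in ar21, at 0.31 ± 0.14 (adjusted p = 0.154). AT1G18070, in the family of EF1A and IF2 gamma, was not called, nor was the transcript elongation factor TFIIS.

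Genes around the translation factors were read from a list of 17 regulators and ribosome partners, all tested. In ar21 4 were higher and 1 lower, with a median log2 fold change of -0.06, and in i4g1 4 were higher and 1 lower, with a median of -0.07. Of all loci 8.76% were called higher and 6.03% lower in ar21, and 12.5% and 9.86% in i4g1. RACK1A, a scaffold protein on the small ribosomal subunit, had normalised counts of 2202 and 2131 in ar21, 2429.6 and 2158 in i4g1, and 1110.5 and 1213 in WT, with log2 fold changes of 0.90 ± 0.12 (adjusted p = 0.000671) in ar21 and 0.98 ± 0.12 (adjusted p = 0.000257) in i4g1. TCTP1, a growth-linked protein, had normalised counts of 8629 and 7211 in ar21, 7143 and 5279 in i4g1, and 4325 and 3495 in WT, with log2 fold changes of 1.02 ± 0.18 (adjusted p = 0.00353) in ar21 and 0.66 ± 0.18 (adjusted p = 0.0233) in i4g1. In both genes every mutant library was above WT. Both RACK1A calls were kept in every fit with 1 library left out, while TCTP1 was lost in ar21 without ar21 replicate 1 (adjusted p = 0.0751) and in i4g1 without WT replicate 2 or i4g1 replicate 1 (up to 0.18). RACK1C was higher by a log2 fold change of 0.87 ± 0.19 (adjusted p = 0.00977) in ar21 and 0.84 ± 0.19 (adjusted p = 0.00765) in i4g1, and RACK1B was called in ar21, at 0.91 ± 0.21 (adjusted p = 0.0147), and not in i4g1, at 0.56 ± 0.21 (adjusted p = 0.0795). Without either ar21 library both ar21 calls were lost, as was that of RACK1B without WT replicate 1 and the i4g1 call of RACK1C without i4g1 replicate 1; without WT replicate 2, RACK1B was called in i4g1 too. The ribosomal protein kinase gene S6K1 was lower in ar21, at a log2 fold change of -0.77 ± 0.20 (adjusted p = 0.0262), and not called in i4g1, at -0.60 ± 0.20 (adjusted p = 0.054). It was called lower in i4g1 under 4 alternatives, namely a mean of at least 50, nuclear total scaling, a replicate block and leaving out WT replicate 1. GCN2, the kinase that acts on eIF2 under amino acid shortage, had normalised counts of 43.2 and 32.9 in ar21, 31.5 and 36.9 in i4g1, and 70.7 and 53.2 in WT and was lower in i4g1, at a log2 fold change of -0.83 ± 0.26 (adjusted p = 0.0359), and not called in ar21, at -0.69 ± 0.26 (adjusted p = 0.0928). GCN20/ABCF3 was higher in i4g1, at a log2 fold change of 0.45 ± 0.14 (adjusted p = 0.031), and not called in ar21, at 0.22 ± 0.14 (adjusted p = 0.319). None of S6K1, GCN2, GCN20/ABCF3 and RACK1B was called between ar21 and i4g1. The calls of S6K1, GCN2 and GCN20/ABCF3 lay near the threshold: S6K1 was lost without WT replicate 2 or either ar21 library (adjusted p up to 0.222), GCN2 without any 1 library other than WT replicate 2 (up to 0.174), and GCN20/ABCF3 without WT replicate 1, i4g1 replicate 2 or either ar21 library (up to 0.165). TOR, named for its role and not by the general rule, with normalised counts of 363 and 450.2 in ar21, 339 and 404 in i4g1, and 459.6 and 398 in WT, was not called in either line.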

How the data were processed

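The deposited table holds 1 signal value per locus and library, which the authors made by dividing read counts by a size factor (a normalised count). The tools named, per the submitters' processing notes, were STAR 2.4.0j, StringTie 1.0.3, HTSeq 0.6.0, DESeq2 1.12.4 with the build TAIR10; their settings are not given in the sources used here. Values were whole multiples of 1 step per library within a tolerance of 0.001, and whole reads were recovered for 5 libraries; for ar21 replicate 1 the step lay too near 1. The kit does not mark the strand, so overlapping genes are uncertain. All 6 libraries of 3 lines entered 1 limma 3.58.1 fit (R 4.3.3) on log2(value + 1), with a mean per line, an intensity trend and a filter at a mean of 10. This gave 15591 loci, with 3 residual and 9.07 prior degrees of freedom. Two-sided p-values were adjusted over all loci by the Benjamini-Hochberg method, at a threshold of 0.05. Log2 fold changes are on that scale, which understates changes of low genes. A floor of 3 reads is 1.30 to 8.40 normalised counts and covers counting error only. Replicates differed by a median of 0.13 (ar21), 0.14 (i4g1) and 0.15 (WT) on the log2 scale over the factors.

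Loci, lengths and upstream windows come from the RefSeq annotation of TAIR10.1, matched by locus for all 97 loci. Named genes were the called factors with the largest changes, up to 12 in each direction and line, and the 2 most abundant of each of 10 roles; exceptions are marked. The members and lists were chosen with earlier results of these data known. The 16 alternatives were other pseudocounts (0.5, 10), no filter or a mean of 50, TMM and nuclear total scaling, no trend, edgeR 4.0.16 and DESeq2 1.42.0 on recovered reads, a replicate block and leaving out each library. The code was tested on simulated data.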

Additional observations from a re-analysis of the deposited data

How the results depend on the processing

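Of the log2 fold changes of the 79 tested factors and 8 regulators under the alternatives, 3731 kept their direction and side of the threshold, 191 lost the call and 26 gained one. A further 187 changed sign and were called in neither fit; none called in either changed sign. The ar21 count of 16 higher and 3 lower factors depended most on the fit: 1 and 0 without the intensity trend, 4 and 1 with edgeR, 3 and 0 with DESeq2, and 3 to 16 and 1 to 3 with 1 library left out. The i4g1 count of 21 higher and 2 lower became 10 and 1 without the trend, 12 and 1 with DESeq2, and gave 1 to 3 lower with 1 library left out (1 without WT replicate 1 or i4g1 replicate 2, 3 without WT replicate 2 or i4g1 replicate 1); with nuclear total scaling 5 were lower. The 13 factors that DESeq2 called in i4g1 and the 3 it called in ar21 were all among the limma calls. Without the trend over all loci, ar21 had 430 higher and 245 lower calls, against 1365 and 940. For the list of 17 regulators, whose alternatives were chosen after seeing the data, ar21 had 1 higher without the trend, 2 with edgeR, 2 with DESeq2 and 1 to 4 with 1 library left out, and 0 lower without a filter, without the trend, with edgeR and with DESeq2 and 0 to 1 with 1 library left out. In i4g1 1 regulator was higher without the trend and 2 to 4 with 1 library left out, and 0 were lower without a filter, without the trend and with DESeq2, 2 at a mean of at least 50 or with a replicate block, 3 with nuclear total scaling and 0 to 3 with 1 library left out. Between ar21 and i4g1, 0 to 3 factors were lower in ar21 with 1 library left out. The median log2 fold change of the factors was 0.16 in ar21 at a mean of at least 50 and 0.13 to 0.18 with 1 library left out; in i4g1 it was 0.15 with nuclear total scaling and 0.18 to 0.26 with 1 library left out; between ar21 and i4g1 it was -0.025 with nuclear total scaling. The causes were not tested. Where a library is left out, the lone library of that line is assumed to vary like the others.

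With a replicate block, 17 factors were higher and 3 lower in ar21 and none was called between ar21 and i4g1. The block called 25 factors in i4g1. The labels do not say that a number marks a shared batch, and the replicate differences of 2 lines correlated at -0.08 (ar21 and WT), -0.03 (i4g1 and WT) and 0.12 (ar21 and i4g1), so the numbers were not used as pairs. No difference is read for the 19 entries under the filter, of which 7 were at 0 in every library.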
